A study of Mus musculus with 8 samples.

Results

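The genes described here are the 4 AMPA receptor subunit genes, Gria1, Gria2, Gria3 and Gria4, and the 3 neuronal pentraxin genes, Nptx1, Nptx2 and Nptxr. All 7 were among the 26711 features of a single-nucleus RNA-seq study of the mouse primary visual cortex (V1) at postnatal day 21 (P21). They were chosen by name, with earlier results of these data known. The animals all carried floxed alleles of Nr3c1, the glucocorticoid receptor (GR) gene (GRfl/fl), and were injected at birth with an AAV2/5 vector in which the astrocyte promoter GfaABC1D drives EGFP-CAAX together with either ΔCre (GR-Con) or Cre (GR-KO). They were normal-reared (NR) or kept in chronic darkness until collection (DR), which gave 4 groups (GR-Con and GR-KO under each rearing condition, written NR GR-Con and so on) of 2 libraries, 1 from a male and 1 from a female mouse. The vector is meant for astrocytes, so GR-KO names an astrocyte deletion, and a difference in another cell type is one between animals with differing astrocytes. By the study's methods, nuclei were sorted as DRAQ5-positive and GFP-negative. EGFP-CAAX is bound to the cell membrane, so this gate does not tell whether a nucleus came from a cell that took up the vector.

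AMPA receptors carry most of the fast excitatory current at cortical synapses and are tetramers of the subunits GluA1 to GluA4, which Gria1 to Gria4 encode. Receptors that hold the edited form of GluA2 let little calcium through, and parvalbumin interneurons are known for receptors poor in GluA2. The neuronal pentraxins NP1 (Nptx1) and NP2 (Nptx2, also called Narp) are secreted proteins that gather AMPA receptors at synapses, above all at excitatory synapses onto interneurons. The receptor form Nptxr anchors these complexes in the membrane, and Nptx2 is known as an immediate early gene that neuronal activity induces.

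The data were UMI counts of 102330 nuclei in 20 deposited cell types, of which 69372 nuclei were in 8 excitatory types, 10403 in 5 inhibitory types and 22555 in 7 non-neuronal types. Levels are given as CPM, the UMIs of a gene per 1000000 UMIs, with UMIs summed over the nuclei of 1 library and cell type. Libraries held 9517 to 15161 nuclei with a median of 14861 to 29223 UMIs per nucleus, and the deepest were those of NR GR-KO (22827.5 and 29223). Of 58 marker genes, 49 were highest in the type they mark, and no marker of L6IT was. In 5 types (ChC, Micro, Endo, SMC-Peri and VLMC) at least 1 library had fewer than 10 nuclei: Micro had 2 to 4 nuclei in the NR GR-Con male, NR GR-KO male and DR GR-Con female libraries against 573 to 948 in the others. Pairs of libraries shared 25 to 66 nucleus barcodes. The NR GR-KO male library stood apart for immediate early genes: in L6CT, Arc was at 81.7 CPM against 5.51 to 11.7 in the other NR libraries and Fos at 16.4 against 1.21 to 1.95, and in L2/3 Npas4 was at 46.6 against 6.29 to 13.8. The member calls that are lost without this library are named beside their values. Nr3c1 was not lower in GR-KO astrocytes (268 to 284 CPM) than in GR-Con astrocytes (207 to 263 CPM). Its count is per gene and does not single out the deleted part, so it does not check the label.

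The site that sets the calcium permeability of an AMPA receptor lies in the same place in all 4 subunit genes, and it is shown because it is the best-known difference between the subunits whose balance is described below. In Gria2 RNA the glutamine codon at this position is edited to one for arginine. The lines give 33 bases of coding sequence of the GRCm38 genome around that codon, in capitals, 5′ to 3′ on the strand of the gene. All lie in a coding exon of the GENCODE vM21 annotation.
Gria1 (chr11:57243079-57243111, + strand, exon 11): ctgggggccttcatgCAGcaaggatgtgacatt
Gria2 (chr3:80706896-80706928, - strand, exon 11): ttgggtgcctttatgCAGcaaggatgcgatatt
Gria3 (chrX:41610250-41610282, + strand, exon 11): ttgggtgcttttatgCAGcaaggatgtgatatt
Gria4 (chr9:4464122-4464154, - strand, exon 12): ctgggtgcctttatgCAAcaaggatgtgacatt
Gria1 differed from Gria2 at 5 of these bases, Gria3 at 2 and Gria4 at 4. The genome encodes glutamine in all 4 genes, and counts per gene do not tell edited from unedited Gria2 RNA.

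The genes differ in size and in what overlaps them. Gria1 spans 318.9 kb of chromosome 11, Gria2 121.4 kb of chromosome 3, Gria3 277.7 kb of chromosome X and Gria4 378.3 kb of chromosome 9. Nptx1 spans 9.035 kb of chromosome 11, Nptx2 11.58 kb of chromosome 5 and Nptxr 18.42 kb of chromosome 15. Nptxr overlaps the protein-coding gene Npcd on the same strand, which has no feature of its own in the count matrix, so Nptxr counts may include reads of Npcd. UMI counts were not scaled to gene length, so each gene is compared here across cell types and groups, and not with another gene.

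Gria1 was highest in Sst and Pvalb interneurons. Over the 15 types with at least 10 nuclei in every library, and all 8 libraries, its level was 2745 ± 282 CPM in Sst (SD, n = 8 libraries) and 2100.2 ± 226 CPM in Pvalb, in this order in 8 of 8 libraries although the ranges overlapped. Pvalb did not overlap with the next type, L6IT (1458 ± 245 CPM). L6CT (1048 CPM), Vip (971), L5PT (919), Lamp5 (842), L2/3 (796), L6b (720.2) and L5IT (668) followed, and each of these neighbours, from L6CT to L5IT, kept its order in only 4 to 6 of 8 libraries. L4 (432 ± 92.4 CPM) and L5NP (361 ± 53.2 CPM) were the lowest neurons, and no L5NP library overlapped with OPC (161 CPM). Astro (145 CPM) and Oligo (26.6 CPM) closed the order. The chandelier cells (ChC, 70 nuclei, 5 to 14 per library) reached 2707 CPM, next to Sst.

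Gria2 was at neuronal levels in OPC and Astro. It ran from 1722 ± 297 CPM in L6CT through L6IT (1574 CPM) and L5PT (1482) down to Sst (1059.8), Pvalb (995) and Lamp5 (923 ± 68.3 CPM), with overlap between all neighbours. OPC (1470.4 ± 188 CPM) and Astro (1406 ± 215 CPM) stood among the excitatory neurons. Only Oligo (479 ± 97.9 CPM) was clear of the type above it.

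Gria3 was highest in L6CT (1403 ± 139 CPM) and L2/3 (1398 ± 142 CPM), which kept their order in 4 of 8 libraries. L5PT (1153 CPM) and Sst (1151) followed, and L4 (291) and Vip (260.4) were the lowest neurons. Gria4 was highest in L5NP (2371 ± 136 CPM) and Pvalb (2028 ± 109 CPM), with L5NP above Pvalb in 8 of 8 libraries. L4 (1528 CPM), Lamp5 (1522), L6IT (1422) and Sst (1259) came next, while L6CT (496), L5PT (363) and L6b (317) were the lowest neurons. L4 was thus near the top for Gria4 and near the bottom of the neurons for Gria1 and Gria3.

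**Figure D1:**
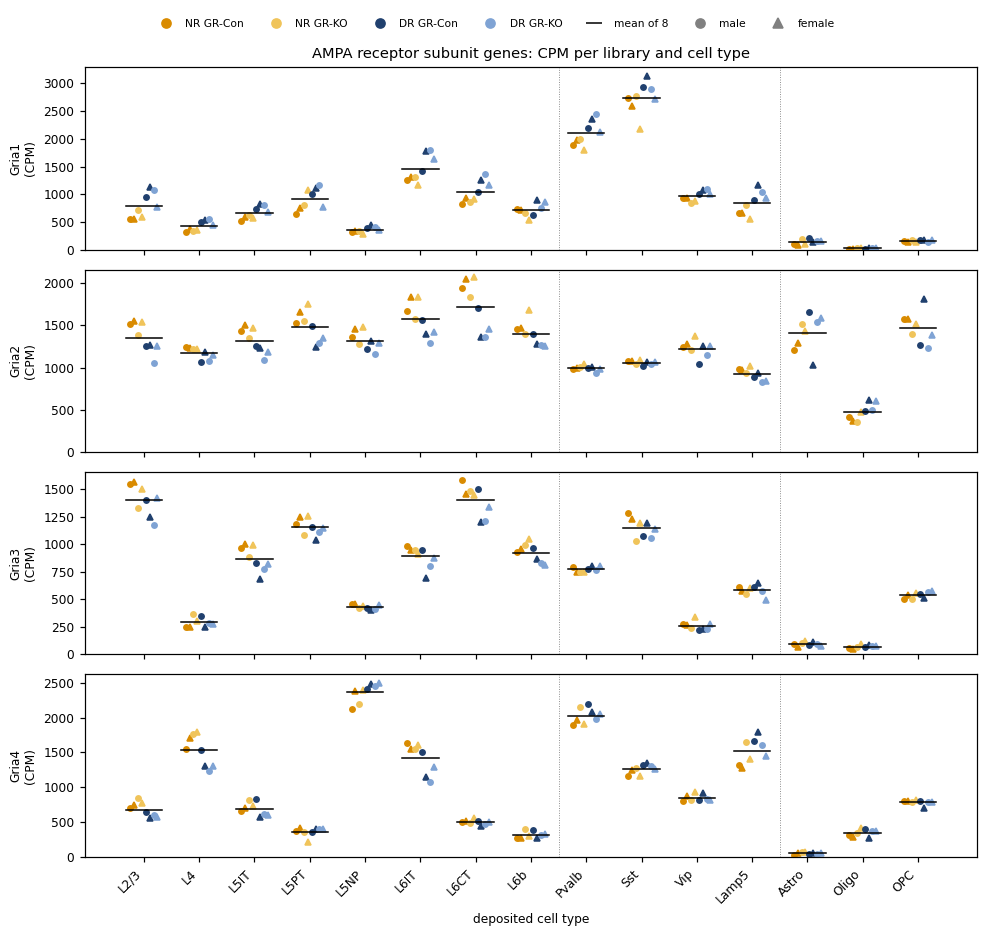
CPM of Gria1, Gria2, Gria3 and Gria4 (linear vertical axes from 0) in each of 8 libraries for the 15 cell types with at least 10 nuclei in every library; points are libraries, coloured by group and shaped by sex, short lines are means of 8, and dotted lines part excitatory, inhibitory and non-neuronal types. Gria1 peaks in Sst (2745 CPM), Gria4 in L5NP (2371 CPM), and Gria2 stays between 923 and 1722 CPM in all types but Oligo.

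Non-neuronal nuclei also carried UMIs of marker genes of neurons, which were used as a measure of background for the members there. Of 10 such genes, called neuron-only genes here (among them Snap25, Rbfox3, Syt1, Slc17a7, Gad1, Gad2, Slc32a1 and Celf4) none was at 0, and their median level as a percent of that in neurons was 9.47% in Astro, 6.65% in Oligo and 14.2% in OPC. The neuron level pools all neuron types, most nuclei of which are excitatory. It is therefore low for Gad1, Gad2 and Slc32a1 (3.46 CPM for Slc32a1), whose percents lay above the median in each of these types. In OPC Gad1 was at 208% of its neuron level, so it is no measure of background there, and the median of the other 9 was 13.1%. Gria2 stood at 104% of its neuron level in Astro, 109% in OPC and 35.5% in Oligo. Gria4 stood at 77.8% in OPC and 34.3% in Oligo but at 5.28% in Astro, below the median there. The neuron-only genes ranged from 3.31% to 80.0% in Astro, from 2.48% to 43.3% in Oligo and from 3.46% to 208% in OPC, so Gria2 in Astro lay above all 10. Gria2 and Gria4 in Oligo and OPC lay above 9 of the 10, the exception being Slc32a1 in Oligo, at 1.49 CPM, and Gad1 in OPC. Gria3 in OPC, at 55.7% (52.0% to 59.3% over libraries), also lay above 9 of the 10, with Slc32a1 at 54.2%, a percent that rests on 1.87 CPM. In Endo, SMC-Peri and VLMC the neuron genes reached a median of 47.7%, 51.7% and 38.6% of their neuron level, so the members are not described as levels of those cells. Some members still lay above all 10 there: Nptxr in Endo (78.7%), and in VLMC Gria3 (71.3%) and the pentraxin genes (54.2% to 74.3%). The pentraxin values rest on 7 to 98 UMIs a type, that of Gria3 on 1962.

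The makeup of the AMPA receptor transcripts differed among the cell types. Gria2 made up 82.5% of all Gria1 to Gria4 UMIs in Astro, 51.6% in Oligo and 49.5% in OPC (means of 8 libraries). Among the neuron types with values in all 8 libraries it was lowest in Pvalb (16.9%) and Sst (17.1%) and highest in L6b (41.6%). The interneuron classes were not alike, with 37.0% in Vip and 24.1% in Lamp5. The Gria1 share was 44.1% in Sst and 35.5% in Pvalb against 12.7% in L4 and 8.05% in L5NP, and the Gria4 share 52.8% in L5NP and 44.4% in L4 against 9.44% in L6b and 9.34% in L5PT. These shares are of UMIs that were not scaled to length, so they rank cell types for 1 subunit and do not give the makeup of the protein.

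Each pentraxin gene had a cell-type order of its own. Nptx1 was highest in deep excitatory neurons, with 60.1 ± 14.6 CPM in L6CT, 43.7 ± 9.11 CPM in L6b and 35.0 ± 13.5 CPM in L6IT. It was at 3.79 CPM in L5PT and at 3.90 to 5.53 CPM in the 4 larger interneuron types, below Oligo (5.87 CPM). Nptxr, the membrane-bound member, was highest in L4 (54.7 ± 5.00 CPM) and L2/3 (51.5 ± 4.43 CPM), which kept their order in 5 of 8 libraries, then in L6IT (39.8) and L5IT (33.4), and was lowest in L6b (5.04 CPM). L6b was thus second for Nptx1 and last for Nptxr.

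Nptx2 had its highest levels in L5IT (11.5 CPM, at least 7.90 in each library) and OPC (11.0 ± 1.47 CPM), whose order held in 3 of 8 libraries. Both means were above that of L6IT (4.71 CPM), and the OPC libraries (8.91 to 13.1 CPM) did not overlap with those of L6IT (2.52 to 8.59 CPM). The OPC level was 315% of that in neurons, above all 10 neuron-only genes there, and rested on 204 UMIs in 2848 nuclei. L2/3 (3.88 CPM), L6CT (3.53), L4 (2.92) and Vip (2.74) followed with overlapping ranges, and L5PT was lowest (0.463 CPM). In ChC neither Nptx1 nor Nptx2 had a UMI in the 3 libraries with at least 10 nuclei, which hold too few nuclei to show absence.

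**Figure D2:**
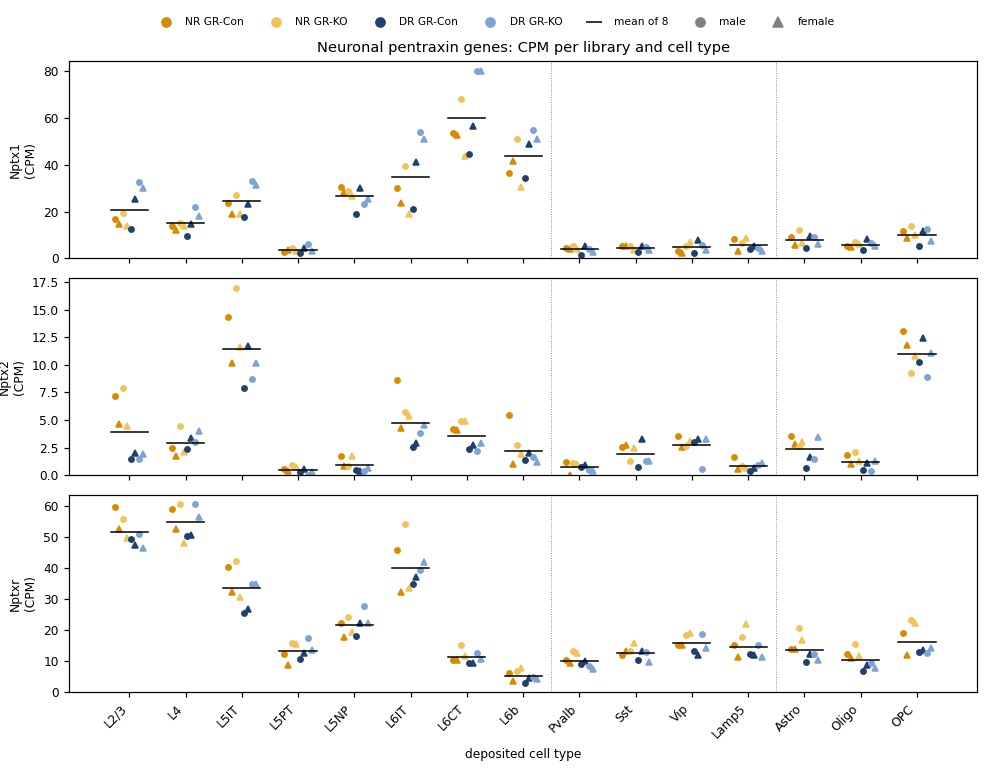
CPM of Nptx1, Nptx2 and Nptxr (linear vertical axes from 0) in each of 8 libraries for the same 15 cell types, with points for libraries, short lines for means of 8 and dotted lines between cell classes. Nptx1 peaks in L6CT (60.1 CPM), Nptx2 in L5IT (11.5 CPM) and OPC (11.0 CPM), and Nptxr in L4 (54.7 CPM).

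For each member, the genes with the most similar pattern (up to 3 are named) were found by Pearson correlation of log2(CPM + 1) over the 20 cell types, among 13672 genes with at least 10 CPM in some type. The points share libraries and depth, and small types weigh as much as large ones, so the values are descriptive. Gria1 was most like Sod2 (r = 0.915), Mirg (0.913) and Kcnk3 (0.910), and Gria2 most like Grik5 (0.924), a kainate receptor subunit gene, 1110051M20Rik (0.893) and Macrod2os1 (0.889). Gria3 was most like Rbfox1 (0.927), which encodes a neuronal splicing factor, and Shisa7 (0.881), and Gria4 most like Scg5 (0.879), Sntg1 (0.875) and Adam22 (0.871). Nptx1 was most like Tbr1 (0.919), a transcription factor gene of deep-layer neurons, Tmem121b (0.880) and Neurod6 (0.857). The values were lower for Nptx2 (Ramp1 0.695, Cask 0.686, Inka2 0.679), and Nptxr was most like Hspb3 (0.855), Siae (0.835) and Gm31135 (0.828). Over the 15 larger types alone Grik5, Rbfox1, Tbr1, Cask and Siae stayed among the 3 nearest genes of their member and the other names changed. With only libraries that held 10 nuclei or more of a type, Sod2, Rbfox1, Sntg1, Tmem121b, Neurod6, Ramp1, Inka2 and Siae stayed and the other names changed. Of the genes named, Rbfox1 and Siae were the ones that stayed in both settings.

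Member calls were most numerous in the comparison of rearing conditions. Over all 8 libraries with genotype as a term, DR against NR passed the test in 16 of the 99 pairs of member and cell type tested, with 9 higher in DR and 7 lower. Over all genes and types, 5.4% of tests passed in this comparison, 2.69% higher in DR and 2.7% lower. The members were chosen with earlier results of these data known, so the 2 shares are set side by side as a description. The quasi-likelihood test called 12 of these 99 pairs and DESeq2 18, and leaving out 1 library at a time gave 9 to 20 calls. Gria1 was higher in 8 of 15 types, and Nptx2 lower in 3 of the 9 types in which it passed the filter on low counts. Gria2 was lower in 2 types and higher in 1, Gria4 and Nptxr were each lower in 1 type, and Gria3 and Nptx1 passed in none (1 and 2 types at an unadjusted p under 0.05, 0 and 1 by DESeq2). The NR and DR libraries did not overlap in CPM in 27 of the 99 pairs, against 11% of all tests. By type, the share of all genes without overlap ran from 5.41% in L6b to 20.9% in L2/3, with 17.7% in L6CT. The share of all genes called varied with the type: it was 16.3% in L2/3, where 4 members passed, 12.7% in L6CT, where 3 passed, 9.91% in L4, where 1 passed, and 2.44% to 6.80% in the other types with a member call.

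Gria1 rose in L2/3, L4, L5IT, L5NP, L6IT and L6CT excitatory neurons and in Pvalb and Lamp5 interneurons under dark rearing. In L2/3 its level was 550.4 and 561 CPM in NR GR-Con, 714 and 597 in NR GR-KO, 953 and 1126 in DR GR-Con, and 1085 and 779.6 in DR GR-KO (male, then female library, here and below). All 4 DR libraries were above all 4 NR libraries, with a log2 fold change of 0.70 and an SE of 0.14, adjusted p = 2.38e-05. In L4 it was 327 and 374 CPM in NR GR-Con, 347 and 358 in NR GR-KO, 504 and 539 in DR GR-Con, and 558 and 447 in DR GR-KO (log2 fold change of 0.58 and an SE of 0.10, adjusted p = 2.08e-06). The L4 groups did not overlap either, at 327 to 374 CPM in NR and 447 to 558 CPM in DR.

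In Lamp5 interneurons Gria1 was at 671 and 669.8 CPM in NR GR-Con, 805 and 546 in NR GR-KO, 899.8 and 1173 in DR GR-Con, and 1038 and 936 in DR GR-KO. The DR libraries again stood above the NR libraries, with a log2 fold change of 0.64 and an SE of 0.12, adjusted p = 0.000128. In L6CT it was at 822 and 933 CPM in NR GR-Con, 865 and 909 in NR GR-KO, 1050.4 and 1266 in DR GR-Con, and 1367 and 1170.5 in DR GR-KO (log2 fold change of 0.46 and an SE of 0.11, adjusted p = 0.000433), again without overlap. In L6IT the NR libraries held 1167 to 1309.9 CPM and the DR libraries 1411 to 1796 CPM (log2 fold change of 0.39 and an SE of 0.10, adjusted p = 0.00428). These 5 cell types held the calls of Gria1 that were least bound to single libraries: leaving out any 1 library kept the calls in L2/3, L4, Lamp5 and L6CT, and the L6IT call was lost without the DR GR-KO male (adjusted p = 0.0587).

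The other Gria1 calls were smaller. The change was 0.41 ± 0.11 (SE, log2, adjusted p = 0.0135) in L5IT, 0.33 ± 0.09 (adjusted p = 0.0235) in L5NP and 0.26 ± 0.08 (adjusted p = 0.0262) in Pvalb, and in each the NR and DR libraries did not overlap. The quasi-likelihood test did not call L5IT (adjusted p = 0.0508), and without the filter on low counts L5NP (adjusted p = 0.0523) and Pvalb (adjusted p = 0.0640) were not called. The L5IT and L5NP calls were lost without either NR GR-Con library, the NR GR-KO female, the DR GR-Con female or the DR GR-KO male (adjusted p = 0.0560 to 0.164). The Pvalb call was lost without the NR GR-Con male, the NR GR-KO female, the DR GR-Con female or the DR GR-KO male (adjusted p = 0.100 to 0.199). Beside the L5IT value, C1ql3, a gene for a secreted synaptic protein, ranged widely among the same L5IT libraries at 2.35 and 3.34 CPM in NR GR-Con, 29.1 and 4.53 in NR GR-KO, 27.9 and 29.1 in DR GR-Con, and 23.2 and 7.06 in DR GR-KO, and its part in the result was not tested. In the 7 types without a call the fitted change was also above 0, from 0.15 in OPC to 0.55 in Astro on the log2 scale.

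**Figure D3:**
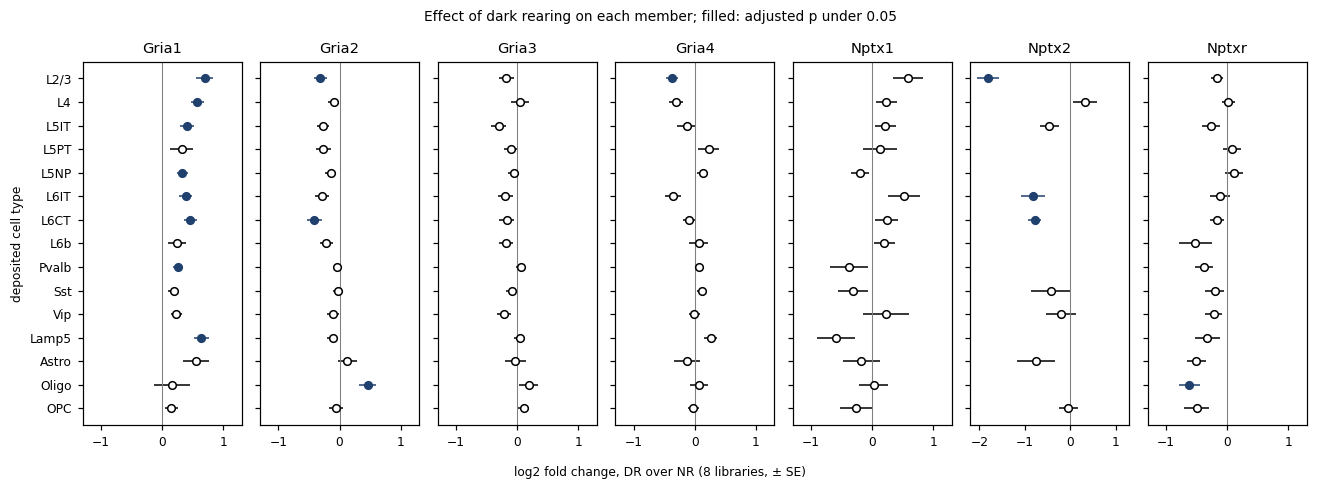
log2 fold change of DR over NR (horizontal axes, ± SE) for each member in each cell type in the fit over 8 libraries; filled points passed at an adjusted p under 0.05, and no point is drawn where a gene did not pass the filter on low counts. Gria1 lies right of 0 in all 15 types and Nptx2 reaches -1.82 in L2/3.

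Gria2 moved the other way in 2 excitatory types. In L6CT it was at 1938 and 2043 CPM in NR GR-Con, 1834 and 2074 in NR GR-KO, 1707 and 1358 in DR GR-Con, and 1360.1 and 1460.2 in DR GR-KO, with every DR library below every NR library (log2 fold change of -0.41 and an SE of 0.12, adjusted p = 0.00931). In L2/3 the NR libraries held 1385 to 1552 CPM and the DR libraries 1058 to 1262 CPM (log2 fold change of -0.31 and an SE of 0.11, adjusted p = 0.0258). The L6CT call was lost without either female NR library or the DR GR-KO male (adjusted p = 0.0543 to 0.0836), and the L2/3 call without either NR GR-Con library, the NR GR-KO female, the DR GR-Con female or the DR GR-KO male (adjusted p = 0.0867 to 0.152). In Oligo Gria2 was higher in DR, at 421 and 369.8 CPM in NR GR-Con, 355 and 473 in NR GR-KO, 487 and 616 in DR GR-Con, and 502 and 609 in DR GR-KO (log2 fold change of 0.46 and an SE of 0.14, adjusted p = 0.0254). That call was lost under the quasi-likelihood test (adjusted p = 0.0664), without the filter on low counts (adjusted p = 0.0502) and without either NR GR-Con library, the NR GR-KO male, the DR GR-Con female or the DR GR-KO female (adjusted p = 0.0646 to 0.242). In the same Oligo nuclei 1 of 9 neuron-only genes tested was called, lower in DR, and the sum of the 10 was 281 to 626 CPM in NR and 270.3 to 439 CPM in DR.

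Gria4 fell in L2/3, where its level was 696 and 741 CPM in NR GR-Con, 842 and 779 in NR GR-KO, 642 and 557 in DR GR-Con, and 599 and 573 in DR GR-KO (log2 fold change of -0.37 and an SE of 0.10, adjusted p = 0.00452). The 4 DR libraries lay below the 4 NR libraries, and the call stood without any 1 library. In L4, where Gria4 is prominent, its level was 1551 to 1800.5 CPM in NR and 1236 to 1538 CPM in DR, without overlap, and the change of -0.30 ± 0.11 did not pass (adjusted p = 0.0523). Gria3 had no call, with fitted changes from -0.30 to 0.19 over the 15 types.

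As a ratio within each library, the share of Gria1 among the Gria UMIs had a higher mean in DR in 12 of 12 neuron types and that of Gria2 a lower mean in 12 of 12. The types come from the same 8 libraries, so they are not independent, and the Gria2 difference in L4 was -0.12 percentage points. Of 3 non-neuronal types, the Gria1 mean was higher in 2 and the Gria2 mean lower in 2. In Oligo the Gria2 mean was 6.30 points higher, with overlap. In L2/3 the Gria1 share was 12.8 and 12.7 percent in NR GR-Con, 16.7 and 13.5 in NR GR-KO, 22.4 and 26.9 in DR GR-Con, and 27.7 and 19.4 in DR GR-KO, so the mean went from 13.9% ± 1.90 in NR to 24.1% ± 3.92 in DR (SD, n = 4). In L6CT the Gria2 share went from 40.6% ± 1.04 to 32.8% ± 2.14, a difference of -7.75 percentage points. The NR and DR libraries did not overlap for Gria1 in 8 neuron types (L2/3, L4, L5IT, L6IT, L6CT, Pvalb, Vip and Lamp5), for Gria2 in 8 (L2/3, L5PT, L5NP, L6IT, L6CT, Pvalb, Vip and Lamp5) and for Gria4 in 3 (lower in DR in L2/3 and L4, higher in L5NP). In each of these 19 cases the exact two-sided permutation test of 4 libraries against 4 gave p = 0.0286, the smallest it can give, and the adjusted p over 60 tests was 0.0902, so none passed. The 4 shares of a library sum to 100, so a rise of 1 has to lower others. Lack of overlap was not counted for ratios of other genes, so these cases have no background of their own. In CPM, 20.9% of all genes tested in L2/3 and 17.7% in L6CT did not overlap between NR and DR.

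**Figure D4:**
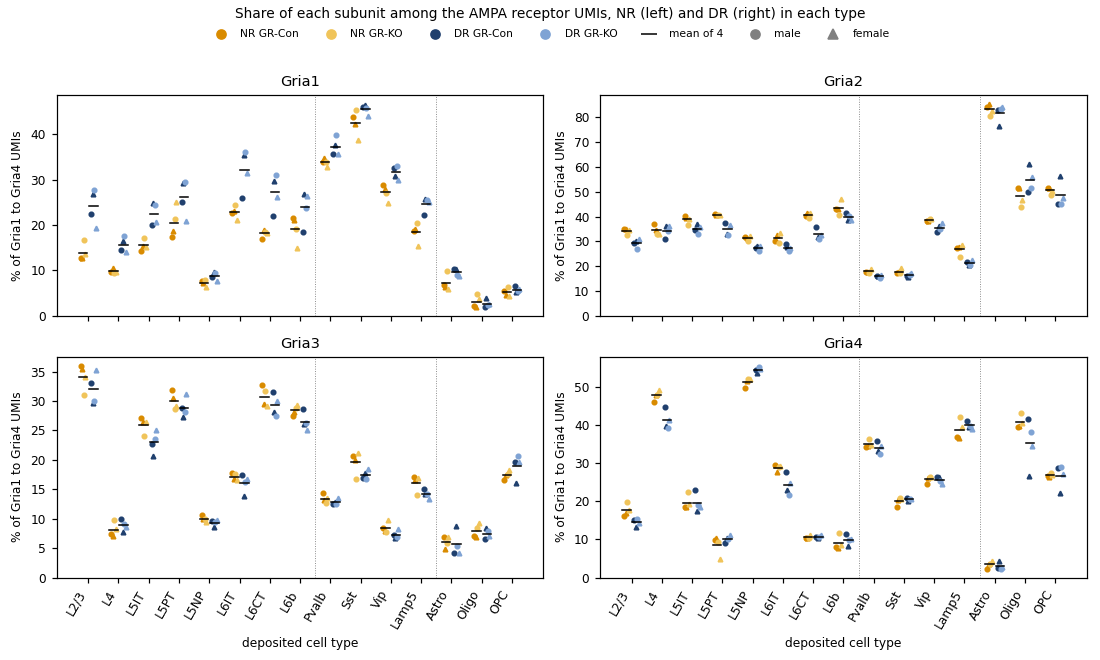
Percent of all Gria1 to Gria4 UMIs taken by each subunit (vertical axes from 0) in each library, with the 4 NR libraries on the left and the 4 DR libraries on the right of each cell type; points are libraries and short lines means of 4. The Gria1 share in L2/3 has a mean of 13.9% in NR and 24.1% in DR, and Gria2 takes 82.5% in Astro over all libraries.

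Of the members, Nptx2 showed the largest change over both genotypes, a fall in L2/3 under dark rearing. Its level there was 7.20 and 4.63 CPM in NR GR-Con, 7.87 and 4.50 in NR GR-KO, 1.45 and 2.04 in DR GR-Con, and 1.42 and 1.94 in DR GR-KO. Each DR library was below each NR library, with a log2 fold change of -1.82 and an SE of 0.24, adjusted p = 4.64e-11, which is a level 3.52-fold lower. Thinned to 2000 UMIs per nucleus, 1.17% of L2/3 nuclei held an Nptx2 UMI in NR (0.865% to 1.53% over libraries) and 0.351% in DR (0.300% to 0.404%). At full depth these shares were 10.9% and 2.85%. In Oligo, a type not known for Nptx2, the thinned share was 0.309% in NR (0.154% to 0.410%) and 0.168% in DR (0.0784% to 0.243%), at a median depth of 8864 UMIs against 21863 in L2/3. In Astro it was 0.615% in NR (0.536% to 0.700%) and 0.376% in DR (0.176% to 0.693%). The L2/3 share was above both glial types in NR, and in DR it lay within the range of Astro.

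Nptx2 also fell in L6CT, from 4.06 to 4.90 CPM in NR to 2.20 to 2.93 CPM in DR (log2 fold change of -0.78 and an SE of 0.15, adjusted p = 1.58e-05). The groups did not overlap, and the L2/3 and L6CT calls both stood without any 1 library. In L6IT it was at 8.59 and 4.27 CPM in NR GR-Con, 5.69 and 5.34 in NR GR-KO, 2.52 and 2.88 in DR GR-Con, and 3.85 and 4.55 in DR GR-KO, with overlap between NR and DR (log2 fold change of -0.82 and an SE of 0.26, adjusted p = 0.0329). That call was lost under the quasi-likelihood test (adjusted p = 0.103) and without the NR GR-Con male, either DR GR-Con library or the DR GR-KO male (adjusted p = 0.0929 to 0.126), and without the NR GR-Con male its size dropped to -0.50. In L4, next to L2/3, Nptx2 did not pass: it was at 1.71 to 4.42 CPM in NR and 2.36 to 4.00 CPM in DR, a change of 0.33 ± 0.27. In L5IT and OPC, where its level is highest, the changes were -0.46 ± 0.20 (adjusted p = 0.192) and -0.04 ± 0.21 (adjusted p = 0.959). Whether the effect differs between cell types was not tested.

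Nptxr had 1 call and Nptx1 none over both genotypes. Nptx1 in L6CT was at 53.6 and 53.0 CPM in NR GR-Con, 68.3 and 43.7 in NR GR-KO, 44.8 and 56.8 in DR GR-Con, and 80.3 and 80.3 in DR GR-KO (log2 fold change of 0.23 and an SE of 0.18, adjusted p = 0.447). The DR GR-KO libraries were the highest there, while the DR GR-Con libraries lay within the range of the NR libraries. Nptxr was lower in DR in Oligo, at 12.1 and 10.8 CPM in NR GR-Con, 15.5 and 11.6 in NR GR-KO, 6.80 and 8.65 in DR GR-Con, and 9.29 and 7.80 in DR GR-KO (log2 fold change of -0.62 and an SE of 0.17, adjusted p = 0.0134). The quasi-likelihood test (adjusted p = 0.0656) and DESeq2 (adjusted p = 0.0927) did not call it, and it was lost without the NR GR-Con male, the NR GR-KO male, the DR GR-Con male or the DR GR-KO female (adjusted p = 0.0522 to 0.145). Nptxr stood at 27.9% of its neuron level in Oligo. In the same nuclei 1 of 9 neuron-only genes was called, lower in DR, their median change was -0.27 (log2), and the sum of the 10 averaged 434 CPM in NR and 329 CPM in DR. Their part in this result was not tested.

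Within each genotype the rearing comparison rests on 2 libraries against 2. The GR-Con and GR-KO comparisons share no library with each other but both reuse libraries of the fit over both genotypes. In GR-Con, 6 of 100 member tests passed (8 by DESeq2) against 2.25% of all tests. By type, 7.45% of all genes were called in L2/3, 6.14% in L5IT, 3.60% in L5PT, 3.44% in L4 and 0.404% in Lamp5. The calls were Gria1 in L2/3 (0.86 log2), L4 (0.58), L5IT (0.50), L5PT (0.58) and Lamp5 (0.67), all higher in DR, and Nptx2 in L2/3 (-1.80, adjusted p = 4.58e-07). Gria1 in L2/3 (adjusted p = 8.96e-06) and Nptx2 in L2/3 stayed called without any 1 library and under the quasi-likelihood test, which called none of the other 4. Gria1 in L4, L5IT and Lamp5 was lost without either NR GR-Con library or the DR GR-Con female, and in L5PT without either NR GR-Con library (adjusted p = 0.0793 to 0.621). A library left alone in its group is then assumed to vary like the rest. In GR-Con the fit of all 8 libraries did not call Gria1 in L5PT or Lamp5.

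In GR-KO, 14 of 112 member tests passed against 3.66% of all tests, 5 higher and 9 lower in DR, and the quasi-likelihood test called 3, all in VLMC, while a fit with a term for sex called 25. DESeq2 called 15, but neither Nptx2 in L6CT (adjusted p = 0.0655) nor Gria1 in Oligo (adjusted p = 0.333), and it gave no adjusted p for Nptxr in Pvalb and Astro. By type, 8.55% of all genes were called in L2/3, 6.94% in L6CT, 5.58% in L6IT, 5.48% in L4 and 2.04% in Pvalb. In neurons Gria1 was higher in L4 (0.58 log2, adjusted p = 0.0108), L6CT (0.53, adjusted p = 0.0227) and L6IT (0.49, adjusted p = 0.0187). Nptx1 was higher in L2/3 (0.97, adjusted p = 0.000198) and L4 (0.53, adjusted p = 0.0315). The L4 call of Nptx1 was lost in the fit of all 8 libraries and without the filter on low counts. Nptx2 was lower in L2/3 (-1.82, adjusted p = 4.56e-05) and L6CT (-0.90, adjusted p = 0.00659), and Nptxr was lower in Pvalb (-0.72, adjusted p = 0.0201). Without the DR GR-KO male all of these neuron calls were lost, among them Nptx2 in L2/3 (adjusted p = 0.0502) and Nptx1 in L2/3 (adjusted p = 0.0833). Without the DR GR-KO female the calls of Gria1 in 3 types, of Nptx1 in L4 and of Nptxr in Pvalb were lost, without the NR GR-KO female those of Gria1 in L6CT and L6IT, Nptx1 in L4 and Nptxr in Pvalb, and without the NR GR-KO male those of Gria1 in L6CT and Nptxr in Pvalb (adjusted p = 0.0562 to 0.697). Nptx2 in L2/3 fell by 1.80 in GR-Con and by 1.82 in GR-KO on the log2 scale, in pairs of groups that share no library.

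The remaining GR-KO calls were in non-neuronal types, where markers of neurons moved with them. Gria1 in Oligo (-0.55 log2), Gria4 in Astro (-0.55), Nptxr in Astro (-0.66), and Gria1 (-1.60), Gria2 (-1.82) and Gria4 (-2.94) in VLMC were all lower in DR. Of all genes tested in this comparison, 19.9% were called in VLMC (13.0% lower), 2.85% in Astro and 3.79% in Oligo. Of the neuron-only genes tested, 7 of 10 were called lower in Astro, 7 of 10 in Oligo and 7 of 7 in VLMC, and none higher. Their sum in NR GR-KO and DR GR-KO was 688 to 696 and 424 to 435 CPM in Astro, 510.4 to 626 and 295 to 311 CPM in Oligo, and 4123 to 5022 and 712 to 1308 CPM in VLMC, without overlap in any of the 3 types. VLMC had 20 to 65 nuclei in these libraries. Gria3 was not called in VLMC, at 822 and 661 CPM in NR GR-KO and 582 and 704 in DR GR-KO. The calls of Gria2 and Gria4 in VLMC stood without any 1 library. That of Gria1 in VLMC was lost without the NR GR-KO male or the DR GR-KO female, those of Gria1 in Oligo and Nptxr in Astro without the NR GR-KO male or either DR GR-KO library, and that of Gria4 in Astro without the DR GR-KO male (adjusted p = 0.0642 to 0.680). The calls in Oligo and Astro were also lost in the fit of all 8 libraries. The part of neuron RNA in the values of these non-neuronal types was not tested.

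Few members were called between GR-KO and GR-Con within a rearing condition. In NR, in libraries that the DR comparison does not use, 2 of 111 member tests passed (1.80%), both higher in GR-KO, against 0.804% of all tests. With a term for sex 5 passed. By type, 7.11% of all genes were called in Astro and 1.53% in Oligo, where the 2 calls were. Gria1 in Oligo was at 16.7 and 13.7 CPM in NR GR-Con, 38.0 and 36.7 in NR GR-KO, 18.8 and 38.9 in DR GR-Con, and 22.8 and 27.3 in DR GR-KO. In NR it was higher in GR-KO (log2 fold change of 1.24 and an SE of 0.18, adjusted p = 9.03e-09), and the DR libraries spanned 18.8 to 38.9 CPM, above both NR GR-Con libraries. It stood at 2.90% of its neuron level in Oligo, below the 6.65% median of the neuron-only genes there. Gria4 in Astro was at 33.1 and 51.4 CPM in NR GR-Con, 68.4 and 75.8 in NR GR-KO, 47.2 and 59.4 in DR GR-Con, and 41.0 and 51.8 in DR GR-KO (log2 fold change of 0.71 and an SE of 0.21, adjusted p = 0.0128 in NR). The Gria1 call stood in all alternatives, and the Gria4 call was lost under the quasi-likelihood test (adjusted p = 0.0672), in the fit of all 8 libraries (adjusted p = 0.0851) and without the NR GR-Con male or the NR GR-KO female (adjusted p = 0.0651 to 0.390). Of the 10 neuron-only genes, 5 in Oligo and 6 in Astro were also called higher in NR GR-KO and none lower. Their sum in NR GR-Con and NR GR-KO was 281 to 319 and 510.4 to 626 CPM in Oligo, and 401 to 492 and 688 to 696 CPM in Astro. The NR GR-KO libraries were also the deepest per nucleus. The part of either in these results was not tested.

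In DR, 2 of 98 member tests passed (2.04%), against 0.513% of all tests, and both were Nptx1, higher in GR-KO. By type, 1.05% of all genes were called in L5IT and 0.809% in L6CT. In L6CT it was at 44.8 and 56.8 CPM in GR-Con and at 80.3 and 80.3 CPM in GR-KO, a log2 fold change of 0.67 and an SE of 0.18, adjusted p = 0.0283. In L5IT it was at 17.6 and 23.3 CPM in GR-Con and at 33.2 and 31.6 CPM in GR-KO, a log2 fold change of 0.68 and an SE of 0.18, adjusted p = 0.0230. The quasi-likelihood test called neither (adjusted p = 0.396 and 0.227), and neither did the fit of all 8 libraries. DESeq2 did not call L5IT. L6CT was also not called without the filter on low counts (adjusted p = 0.0515). Both calls were lost without either DR GR-KO library and the L5IT call also without the DR GR-Con male (adjusted p = 0.242 to 1.000). In L2/3, L4 and L6IT the means of Nptx1 in DR were also higher in GR-KO (31.5, 20.0 and 52.5 CPM) than in GR-Con (18.8, 12.2 and 31.3 CPM), without a call.

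**Figure D5:**
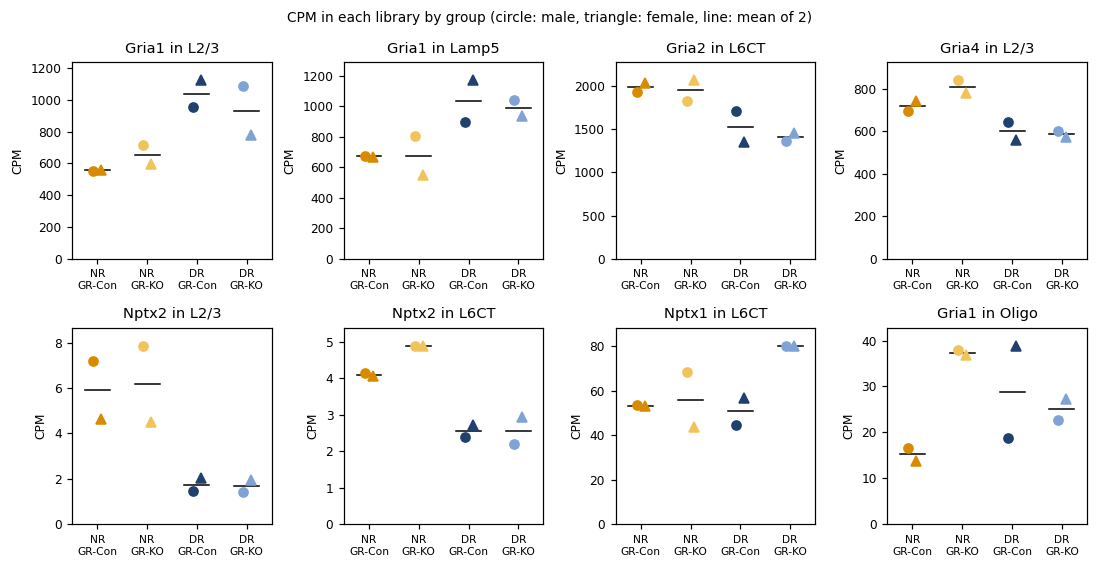
CPM (linear vertical axes from 0) in each library for 8 pairs of gene and cell type, by group; circles are male and triangles female libraries, and lines are means of 2. In the panels of Gria1 in L2/3 and Lamp5, Gria2 in L6CT, Gria4 in L2/3 and Nptx2 in L2/3 and L6CT the DR libraries do not overlap with the NR libraries. Nptx1 in L6CT is highest in DR GR-KO (80.3 CPM), and Gria1 in Oligo is lowest in NR GR-Con (15.2 CPM).

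Over both rearing conditions, GR-KO against GR-Con called 0 of 99 member tests by edgeR, the quasi-likelihood test and DESeq2, with 6 at an unadjusted p under 0.05 and 0.395% of all tests called. The lowest p was that of Nptxr in L5PT, at 12.1 and 8.52 CPM in NR GR-Con, 15.8 and 15.6 in NR GR-KO, 10.7 and 12.4 in DR GR-Con, and 17.3 and 13.5 in DR GR-KO (log2 fold change of 0.51 and an SE of 0.14, adjusted p = 0.134). The other 5 were Nptx1 in L4, L5IT and L6CT and Nptxr in L6CT and Vip, all with higher means in GR-KO. The interaction, for which the GR-KO effect under DR was subtracted from that under NR, called 0 of 101 member tests by edgeR, the quasi-likelihood test and DESeq2, with 7 at an unadjusted p under 0.05 and 0.181% of all tests called, while the fit with a term for sex called 2. Among the 7 pairs at an unadjusted p under 0.05 were Gria1 in Oligo (log2 fold change of 1.42 and an SE of 0.41, adjusted p = 0.0915) and Nptx1 in L6CT (-0.62 ± 0.31, unadjusted p = 0.0493). No AMPA subunit share was called between the genotypes, where of 60 exact permutation tests of 4 libraries against 4 the smallest p was 0.143.

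Genes that work with AMPA receptors and pentraxins were taken as lists, which were also chosen with earlier results of these data known. Of 18 auxiliary subunit genes, which steer the gating and trafficking of the receptor, 29 of 252 tests were higher in DR over both genotypes and 1 was lower (11.9% called, against 5.4% of all tests). Shisa9 rose in 5 types (log2 fold change 0.68 ± 0.14 SE in Sst, adjusted p = 0.000818), Gsg1l in 5 (log2 fold change 1.34 ± 0.32 SE in L6CT, adjusted p = 0.000883) and Cacng2, which encodes stargazin, in 4 (log2 fold change 0.59 ± 0.14 SE in L4, adjusted p = 0.000804). Gsg1l in L6CT was at 28.6 and 59.1 CPM in NR GR-Con, 35.9 and 58.6 in NR GR-KO, 70.8 and 117 in DR GR-Con, and 189.7 and 92.4 in DR GR-KO, and all DR libraries were above all NR libraries. The median log2 change of the list was 0.083, against -0.0045 as the median of the type medians of all genes. Cacng2 was also higher in GR-KO than in GR-Con under DR in 5 types (log2 fold change 0.71 ± 0.15 SE in L2/3, adjusted p = 0.00190), and its interaction passed in L2/3 (-0.81 ± 0.19, adjusted p = 0.0152).

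Of the genes for anchoring, trafficking and editing, 7 of 207 tests were higher and 4 lower in DR, a share of 5.31% that is near the 5.4% of all tests. Grip1, a scaffold of GluA2 and GluA3, rose in L4, L5NP and Lamp5 (log2 fold change 0.29 ± 0.08 SE in L4, adjusted p = 0.00771). Pick1, which binds the same subunits and takes part in their removal from the surface, fell in L5IT and L5PT (log2 fold change -0.31 ± 0.10 SE in L5IT, adjusted p = 0.0337). Adarb2, a relative of the editing enzyme gene Adarb1, rose in L6CT (0.63) and fell in L5IT (-1.04). Adarb2 was also called in both directions among the cell types between genotypes in NR and in DR, from -2.60 to 0.91 in DR, and over both rearing conditions it was called in L5PT alone (-1.68). Adarb1, whose product edits Gria2, was not called over both genotypes. In GR-Con it was lower in DR in L5IT (-0.47, adjusted p = 0.0294) and in GR-KO lower in VLMC (-1.77, adjusted p = 0.000168), where neuron markers fell too.

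Of the pentraxin partners and other secreted synaptic organisers, 4 of 110 tests were higher and 5 lower in DR (8.18%, against 5.4% of all tests). Olfm2 rose in L6CT, Pvalb and OPC (log2 fold change 0.67 ± 0.12 SE in OPC, adjusted p = 2.49e-05), Olfm1 fell in Astro, Oligo and OPC (log2 fold change -0.57 ± 0.13 SE in Oligo, adjusted p = 0.00104) and Olfm3 fell in L4 (log2 fold change -0.50 ± 0.12 SE in L4, adjusted p = 0.00142). The products of these olfactomedin genes are secreted, and some are found with AMPA receptors. Of the neuron-only genes, 0 of 10 in Astro, 1 of 9 in Oligo and 1 of 9 in OPC were called in this comparison, lower in DR. Their median log2 changes were -0.26 in Astro, -0.27 in Oligo and -0.26 in OPC, in the direction of Olfm1. Their part in the Olfm1 calls was not tested. The activity-regulated genes, to which Nptx2 is related by its induction, passed in 34 of 151 tests (22.5%), all lower in DR, with a median log2 change of -0.645 over all tests of the list. In GR-Con, which does not use the NR GR-KO male library that stood apart for these genes, 10 of 146 were called (6.85%, against 2.25% of all tests), all lower in DR, and the median was -0.408. Scg2, which encodes a granule protein, fell in 10 types (log2 fold change -1.72 ± 0.22 SE in L2/3, adjusted p = 2.34e-12), Nrn1 in 7 (log2 fold change -0.68 ± 0.12 SE in L6IT, adjusted p = 3.93e-06) and Egr1 in 5 (log2 fold change -1.08 ± 0.23 SE in OPC, adjusted p = 0.000681). Scg2 in L2/3 was at 12.1 and 9.58 CPM in NR GR-Con, 13.8 and 9.64 in NR GR-KO, 3.87 and 5.18 in DR GR-Con, and 2.50 and 2.59 in DR GR-KO, without overlap between NR and DR, as for Nptx2 in the same nuclei. Arc in L6CT was at 11.7 and 8.20 CPM in NR GR-Con, 81.7 and 5.51 in NR GR-KO, 4.39 and 5.72 in DR GR-Con, and 7.92 and 13.5 in DR GR-KO. It was called lower in DR in GR-Con (-0.98, adjusted p = 0.0144), while the NR GR-KO male stood far above the NR GR-KO female. The neuron-only genes, used as a measure of background, passed in 13 of 141 tests, 6 higher (all Celf4, in 6 neuron types) and 7 lower.

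Between genotypes in NR, 10 of 271 tests of the auxiliary subunits passed (3.69%, against 0.804% of all tests), 6 higher and 4 lower in GR-KO, with Cacng3 higher in Astro and Oligo (log2 fold change 0.77 ± 0.18 SE in Astro, adjusted p = 0.000699) and Shisa6 lower in L5PT (log2 fold change -1.07 ± 0.25 SE in L5PT, adjusted p = 0.00373). The activity-regulated genes passed in 3 of 161 tests in NR (1.86%), all higher in GR-KO and in glia (Fos and Nr4a1 in Oligo, Bdnf in Astro). In the same comparison 6 of 10 neuron-only genes in Astro and 5 of 10 in Oligo were called higher in GR-KO, with medians of 0.65 and 0.72 on the log2 scale, and their part in these glial calls was not tested. In DR the activity-regulated genes passed in 8 of 147 tests (5.44%, against 0.513% of all tests), 7 of them higher in GR-KO, with Homer1, a scaffold gene of the postsynaptic density, higher in L4, L6CT, L6b and Sst (log2 fold change 0.88 ± 0.17 SE in L6b, adjusted p = 0.000519) and Fos in L5IT and L6CT (log2 fold change 1.74 ± 0.40 SE in L6CT, adjusted p = 0.00472). Both Fos calls were in types where Nptx1 was called higher in DR GR-KO, while of the Homer1 types only L6CT was. Fos in L6CT was at 0.529 and 0.963 CPM in DR GR-Con and at 2.15 and 2.81 in DR GR-KO. A link between these changes was not tested.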

How the data were processed

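The authors sequenced nuclei of V1 by 10x 3′ v4 chemistry and deposited UMI counts per gene and nucleus, made with Cell Ranger 8.0.1 at default settings on mm10, with cell types assigned in Seurat 5.3.0 after doublet removal with DoubletFinder. Whether intronic reads were counted was not given in the sources used here. Deposited counts were summed per library and cell type and scaled to CPM. The labels give no batch. Sample titles number the replicates and library names give the sex, with nothing to link number and sex. The p-values rest on the spread between libraries, with 2 libraries a group within a rearing condition or a genotype. The fits of rearing or of genotype over all 8 libraries compared 4 against 4, with the other factor as a term. The permutation tests compared 4 against 4 without that term. Total UMIs were 168632129 to 288774016 per library. A cell type was tested when each library of the fit held at least 10 nuclei. Differences were tested with the likelihood ratio test of edgeR 4.0.16 in R 4.3.3, as in the study's methods, on all genes that passed filterByExpr, with Benjamini-Hochberg adjustment within a cell type and a threshold of 0.05. SE is the log2 fold change divided by the root of the likelihood ratio. The alternatives were the quasi-likelihood F-test, DESeq2 1.42.0, its size factors, no filter on low counts, a term for sex, a fit of all 8 libraries and leaving out each library. Scripts were tested on simulated data. Subunit shares are percent of the deposited UMIs of Gria1 to Gria4 and were compared by an exact two-sided permutation test. Nuclei were thinned to 2000 UMIs, leaving out shallower nuclei, before counting those with a UMI. All members are named, with up to 3 genes of the most similar pattern for each. Some items are not reported here. From the other lists, up to 3 genes with calls in the most types are named per comparison, plus Adarb1, Adarb2, Dlg4 and Arc where called. The members and lists were chosen with earlier results of these data known. Python 3.11.15 with pandas 2.3.3, scipy 1.17.1 and matplotlib 3.10.9 was used.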

Additional observations from a re-analysis of the deposited data

How the results depend on the processing

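No paired analysis was possible because the names of the libraries give group and sex but no replicate number, and the sex term stood in for a pairing of male and female libraries. Of the 40 single calls, 12 kept their call in every alternative, the quasi-likelihood F-test kept 18, the fit of all 8 libraries kept 12 and lost 9 of those it applies to, no filter on low counts kept 33 and lost 7, and none of 443 values from the alternatives changed direction. These values are refits of pairs already called, on the same counts or on all but 1 of the libraries. A change of direction was therefore unlikely, and its absence does not check the calls. The quasi-likelihood test called 1 member pair between genotypes in NR (2 by the likelihood ratio test), 0 in DR (2), 2 for rearing in GR-Con (6) and 3 for rearing in GR-KO (14). With the sex term these were 5 for genotype in NR, 25 for rearing in GR-KO and 2 for the interaction (0). The fit of all 8 libraries called 1 for genotype in NR and 0 in DR, and no filter on low counts gave 1 in DR. Leaving out 1 library at a time gave 9 to 20 calls for rearing over both genotypes (16), 2 to 13 for rearing in GR-Con, 3 to 17 in GR-KO, 1 to 5 for genotype in NR, 0 to 6 in DR, 0 to 2 for genotype over both rearings and 0 to 2 for the interaction. The subunit shares that did not overlap between DR and NR numbered 19 to 26 of the tests in the same way, and those between genotypes 0 to 6 (0). Leaving out a library can only narrow the range of a group, so these counts could not fall and do not check the shares. With the NR GR-Con libraries alone, 4 of the 7 members had the same cell type on top. Levels from libraries with 10 nuclei or more of a type were an alternative chosen after seeing the data. Size factors of DESeq2 moved the median of all genes by at most 0.028 (log2). The cause of these changes was not tested. Nptx2 had low counts and passed the filter on them in 9 of 15 types, so its change in the others was not tested, and 2 libraries a group limit the comparisons within a genotype or a rearing condition.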
